A study of Mus musculus with 24 samples.

Results

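The members described here were 4 of the 16 RNA libraries, namely those of mice given PancVAX + Anti-PD-1 and those of mice given PancVAX alone. They were taken by their labels, with 1 library per treatment from unsorted dissociated tumors (whole tumor) and 1 from tumors passed over a Percoll gradient to raise the share of immune cells (Percoll). Within them 2 classes of cells were picked by transcript. CD8+ T cells had at least 1 UMI of Cd3e, at least 1 of Cd8a or Cd8b1, and none of Cd4, and macrophages had at least 20 UMIs of the C1q genes per 10000 and none of Cd3e. This gave 3370 CD8+ T cells of 10259 in the series and 3456 macrophages of 13999. The tumors were Panc02, a mouse pancreatic cancer line, grown subcutaneously in male C57BL/6 mice aged 6 to 7 weeks. PancVAX, a vaccine of neoantigen peptides at 50 ug per peptide, was given on days 12 and 19 with the adjuvants AddaVax and a STING agonist. Anti-PD-1 at 100 ug was given 2 times a week from day 12, and tumors were taken on day 38 by the labels. By the methods, mice given PancVAX alone received isotype antibodies, so that both groups had the vaccine, the adjuvants and an antibody. The other libraries, used in the fit and as comparisons, were of PancVAX + Anti-CTLA-4, PancVAX + Anti-PD-1 + Anti-CTLA-4 and 4 treatments without vaccine. These were Anti-PD-1, Anti-CTLA-4, Anti-PD-1 + Anti-CTLA-4 and Isotype Control. By the methods, mice without vaccine received PBS in its place, and no adjuvant is described for them. Mice were pooled by treatment, and by the methods the preparations are also the 2 sequencing batches. Each treatment is therefore 1 pool read in 2 libraries, and the labels do not state whether both libraries hold the same mice. P values measure the spread between libraries, which may be technical, and not the spread between mice.

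PD-1 is an inhibitory receptor that T cells raise after antigen recognition, and its ligand PD-L1 (Cd274) is induced by interferon on macrophages and tumor cells. Blocking antibodies release signaling through the T cell receptor and CD28. STING agonists start type I interferon, which turns on a shared set of antiviral genes in most cells through transcription factors bound to interferon-stimulated response elements. CD8+ T cells kill with perforin and granzymes and recruit other cells with chemokines, while tumor macrophages present antigen, take up debris, and can restrain T cells through enzymes such as arginase.

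The 4 libraries held 80986505 to 105182262 UMIs and 3012 to 7413 cells that passed the limits. The Percoll library of PancVAX + Anti-PD-1 stood apart, with 61.9% of its barcodes passing against 31.2–47.2% in the other 15 libraries. Its median depth was 4074 UMIs per CD8+ T cell and 3012 per macrophage, against 3257–3864 and 3261–3503 in the other 3. Between any pair of the 4 libraries 11 to 42 passing cells and 0 to 2 gated cells of a class shared a barcode sequence. CD8+ T cells made up 19.4% of passing cells (95% exact binomial interval 18.0–20.8%) with PancVAX alone and 24.3% (22.97–25.7%) with anti-PD-1 in whole tumor, but 18.7% (17.4–20.1%) and 16.6% (15.7–17.4%) in Percoll. The share therefore moved in opposite directions in the preparations, and without the upper limits on UMIs and on genes it was higher with anti-PD-1 in both (11.6% and 16.1% in whole tumor, 11.2% and 13.3% in Percoll). Macrophages made up 27.9% and 23.1% in whole tumor and 22.4% and 13.3% in Percoll. These shares are given as descriptions and were not tested. Of the macrophages, 371 lay between 20 and 40 C1q UMIs per 10000 and 3085 at 40 or more, and 495 cells lay just outside, between 10 and 20.

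The classes carried the markers of their names. Summed over 11 T cell markers outside the gate (Cd3d, Trac, Lck and others), CD8+ T cells held 6559–8960 CPM of the class's UMIs (not scaled by TMM) in the 4 libraries and macrophages 47.0–109. Summed over 14 macrophage markers (Csf1r, Adgre1, Lyz2 and others), macrophages held 27805–36395 and CD8+ T cells 669–1071. Both lowest own-class values were in the Percoll library of PancVAX + Anti-PD-1. In the CD8+ T cell class 10 of 11 T cell markers were lower with anti-PD-1 (median log2 fold change -0.27, 0 passing the test below). Macrophage markers were higher for 13 of 14 (median 0.33), tumor epithelial markers for 4 of 4 tested (2.04, 1 passing) and fibroblast markers for 6 of 6 (0.88). B cell and NK cell markers were each lower for 3 of 4 tested. In the macrophage class 10 of 14 macrophage markers were lower with anti-PD-1 (median -0.10, 0 passing). Fibroblast markers were higher there for 5 of 6 (1.12, 1 passing), mast cell markers for 3 of 3 tested (3.77) and T cell markers for 7 of 8 (0.60). Tumor epithelial markers were higher for 3 of 4 (0.59), and endothelial (-3.15) and B cell markers (-1.01) were each lower for 5 of 5. The part of these shifts in the macrophage values was not tested. No gate left out cells with tumor epithelial or fibroblast transcripts. Both libraries with anti-PD-1 held transcripts of skin and mast cells. Passing cells held 1476 UMIs of the basal keratin Krt5 in whole tumor and 4581 in Percoll with anti-PD-1 and 0 in both libraries of PancVAX alone. The mast cell protease Mcpt4 had 344 and 1918 UMIs with anti-PD-1 and 12 and 3 with PancVAX alone. Of gated CD8+ T cells, 1.87% in each library with anti-PD-1 had a Krt5 UMI. In passing cells these transcripts were therefore higher in both libraries of the pool with anti-PD-1, and which library held more of them depended on the gate. Krt5 had 8 and 80 UMIs in passing cells with Anti-PD-1 without vaccine and 87 and 21 with isotype control, whole tumor first. It had 202 and 128 with PancVAX and both antibodies and 188 and 182 with PancVAX + Anti-CTLA-4. Among gated macrophages of the PancVAX + Anti-PD-1 Percoll library Krt5 had 545 UMIs, 530 of them in 12 cells, against 12 UMIs in the whole-tumor library of that treatment and 0 with PancVAX alone. Among CD8+ T cells of the same library Mcpt4 had 1075 UMIs, 1072 of them in 24 cells, against 13, 1 and 0 in the other 3 libraries. Among macrophages the order was the reverse, with 91 Mcpt4 UMIs in whole tumor (78 of them in 1 cell) and 1 in Percoll with anti-PD-1. None of the 13 mitochondrially encoded genes passed the test in either class, and cells with hemoglobin had been removed by the limits. The counts given next are therefore also given without cells that hold a skin or mast cell UMI.

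In CD8+ T cells, 9 of 23 type I interferon-stimulated genes, granzyme B and perforin were lower in the PancVAX + Anti-PD-1 libraries than in those of PancVAX alone, and Tob1, Nr4a3 and Crem, which encode regulators of transcription, were higher. Here and below, rose and fell mean higher and lower with anti-PD-1 than with PancVAX alone, and with 1 pool a side the antibody and the pool cannot be told apart. Of 10454 genes tested, 131 (1.25%) passed an adjusted P of 0.05 (edgeR, Benjamini-Hochberg) with a log2 fold change beyond 0.5, 61 higher (0.584%) and 70 lower (0.67%). Among all tested genes, 18.5% had both libraries with anti-PD-1 above both without and 19.7% had both below. The count depended on the fit. Only 1 gene (1174 at an unadjusted P under 0.05) passed without preparation as a block, 0 passed (1376 at an unadjusted P under 0.05) in a fit of the 8 PancVAX libraries, and DESeq2 called 75. Leaving out a library gave 15 (PancVAX whole tumor), 5 (PancVAX Percoll), 1261 (PancVAX + Anti-PD-1 whole tumor) and 56 (PancVAX + Anti-PD-1 Percoll), and leaving out cells with a skin or mast cell UMI gave 135.

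Of 23 type I interferon-stimulated genes tested 9 fell and 0 rose, 21 had a negative log2 fold change, and the median was -0.56 beside 0.01 over all genes. Ifit3, which blocks translation of viral RNA, had 96.9 and 90.6 CPM with PancVAX alone and 51.5 and 47.4 CPM with anti-PD-1, whole tumor first, so that the groups did not overlap (log2 fold change -0.92, SE 0.12, adjusted P = 0.00234, edgeR). Usp18, which trims ISG15 and dampens the interferon receptor, went from 47.3 and 44.9 CPM to 25.1 and 14.2 CPM (log2 fold change -1.28, SE 0.19, adjusted P = 0.00527). Isg15, the ubiquitin-like modifier itself, went from 345 and 355 CPM to 203 and 275 CPM (log2 fold change -0.56, SE 0.12, adjusted P = 0.0308). The other members that fell were Ifit2 (-1.24, adjusted P = 0.0307), the oligoadenylate synthetase Oas3 (-1.11, adjusted P = 0.0258), Ifi27l2a (-0.83, adjusted P = 0.0181), Rtp4 (-0.80, adjusted P = 0.00425), the exonuclease Isg20 (-0.72, adjusted P = 0.00840) and Xaf1 (-0.63, adjusted P = 0.0462, all edgeR log2 fold changes). Ifi213, a member of the p200 family outside the list, fell by 1.04 on the log2 scale, from 70.3 and 77.5 CPM to 42.6 and 30.0 CPM. Oasl1 at 0.28 and Ifi44 at 0.25 were the members with a positive value, and neither passed (adjusted P = 0.868 and 0.921).

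The summed level of the 23 members was 2688 CPM in whole tumor and 2708 CPM in Percoll with PancVAX alone, and no other library exceeded 2024 CPM. With anti-PD-1 added it was 1789 and 1701 CPM, next to 1827 and 1763 CPM with PancVAX + Anti-CTLA-4 and 1960 and 2024 CPM with PancVAX and both antibodies. The 8 libraries without vaccine lay at 940–1355 CPM. The level with anti-PD-1 thus stayed above every library without vaccine. The count of members that fell was 3 and 1 without the whole-tumor or Percoll library of PancVAX, 13 and 6 without that of PancVAX + Anti-PD-1 (without the whole-tumor one 1 member was also called higher), 9 without cells holding a skin or mast cell UMI, 6 by DESeq2, 1 without the block and 0 in the fit of the 8 PancVAX libraries, where 21 members still had a negative value.

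**Figure D1:**
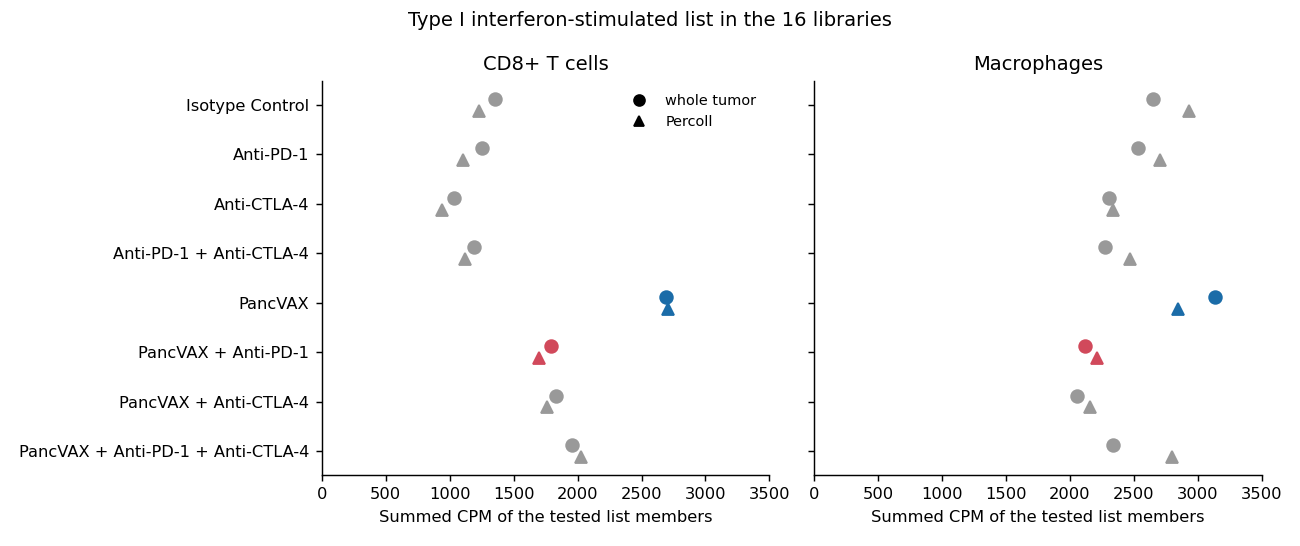
Summed CPM of the tested members of the type I interferon-stimulated list in CD8+ T cells (left) and macrophages (right), 1 point per library, with 2 libraries (circle, whole tumor; triangle, Percoll) for each of 8 treatments. Both PancVAX libraries (blue) are the highest of the 16 in CD8+ T cells at 2688 and 2708 CPM, and both PancVAX + Anti-PD-1 libraries (red) lie lower in both classes.

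Promoters were searched for the letters GAAANNGAA, the core of the interferon-stimulated response element, on both strands of the 250 bases before each RefSeq start (GRCm38.p6). They were found for 16 of 52 genes lower with anti-PD-1 that have a promoter in the table (30.8%), for 0 of 46 higher genes, and for 645 of 8250 tested genes (7.82%). A stricter form with a further A at its end, which was searched first, was found for 13 of the 52 (25.0%), 0 of the 46, and 292 of the 8250 (3.54%). Of the 16 genes, 13 are outside the interferon-stimulated list, among them Apobec3, Slfn5, Trim30a and the p200 family genes Ifi203, Ifi208, Ifi213 and Ifi214. The element is shown in capitals for 4 genes, so that its copies can be compared, in stretches of 100 bases read in the direction of the gene, at chr19:34583354-34583453 on the plus strand, chr4:156200819-156200918 on the minus strand, chr5:120777660-120777759 on the minus strand and chr7:104465194-104465293 on the minus strand.
Ifit3: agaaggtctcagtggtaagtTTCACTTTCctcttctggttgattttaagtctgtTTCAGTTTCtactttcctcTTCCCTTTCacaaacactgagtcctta
Isg15: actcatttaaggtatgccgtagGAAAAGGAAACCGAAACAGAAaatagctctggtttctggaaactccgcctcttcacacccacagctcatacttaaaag
Oas3: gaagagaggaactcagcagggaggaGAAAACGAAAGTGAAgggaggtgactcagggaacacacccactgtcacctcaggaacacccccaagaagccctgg
Trim30a: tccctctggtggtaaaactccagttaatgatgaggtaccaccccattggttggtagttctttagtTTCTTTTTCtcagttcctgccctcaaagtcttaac
The stretch of Isg15 holds 3 copies that overlap, that of Oas3 holds 2, and that of Ifit3 holds 3, which like the copy of Trim30a lie on the other strand. Trim30a, a TRIM family gene, fell by 0.72 on the log2 scale (adjusted P = 0.0147, edgeR). A match is a description of the letters, and binding was not measured. This motif too was chosen with earlier results of these data known, and a gene outside the list may still be interferon-stimulated.

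Of 18 cytotoxic effectors 3 fell and 0 rose, 15 had a negative value, and the list median was -0.65. With anti-PD-1 added to PancVAX + Anti-CTLA-4 this median was 0.001, and without vaccine -0.14. The summed level was 9925 and 11489 CPM with PancVAX alone and 8625 and 7776 CPM with anti-PD-1, whole tumor first. The other libraries spanned 7104 to 12134 CPM, so both lay within their range. PancVAX + Anti-CTLA-4 stood at 7762 and 10430 CPM, and isotype control at 10940 and 12134 CPM. Granzyme B (Gzmb), the main apoptosis-inducing protease of killer cells, went from 1611 and 1924 CPM to 1146 and 996 CPM (log2 fold change -0.70, SE 0.15, adjusted P = 0.0308, edgeR). Perforin (Prf1), the pore former, went from 150.1 and 151 CPM to 104 and 63.0 CPM (log2 fold change -0.89, SE 0.18, adjusted P = 0.0288), and Gzmc, another granzyme, went from 75.7 and 130.2 CPM to 61.0 and 43.3 CPM (log2 fold change -0.998, SE 0.22, adjusted P = 0.0422). In all 3 the groups did not overlap, but the gap in whole tumor was the smaller. Cells with a Gzmb UMI were 70.2% (66.3–73.8%) of CD8+ T cells with PancVAX alone and 73.4% (70.5–76.2%) with anti-PD-1 in whole tumor, and 80.3% (76.9–83.5%) and 62.5% (59.7–65.2%) in Percoll, against 2.26–6.17% of macrophages. Thinned to 1000 UMIs a cell, these were 53.8% and 51.4% in whole tumor and 61.4% and 41.6% in Percoll. The share of cells with a Gzmb UMI thus separated beyond counting error only in Percoll. The count of effectors that fell was 1 and 0 without the whole-tumor or Percoll library of PancVAX, 10 and 0 without that of PancVAX + Anti-PD-1, 2 without cells holding a skin or mast cell UMI, and 0 both without the block and in the fit of the 8 PancVAX libraries. The list median was -0.30 without the Percoll library of PancVAX + Anti-PD-1 and -0.41 in cells with no macrophage or B cell UMI. In the Percoll library of PancVAX + Anti-PD-1 64.4% of gated CD8+ T cells had a T cell receptor beta chain in the receptor data, against 84.0% with PancVAX alone. The part of this difference in the granzyme and perforin values was not tested. The 11 T cell markers outside the gate had a median of -0.27, whose part in these values was not tested either. Gzma (-0.36, adjusted P = 0.437), Gzmk (-0.24, adjusted P = 0.493) and Nkg7 (-0.42, adjusted P = 0.0646) did not pass.

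Of 10 secreted factors 1 fell. Ccl4, a chemokine that draws in other immune cells, went from 787 and 1105 CPM to 442 and 582 CPM (log2 fold change -0.88, SE 0.20, adjusted P = 0.0439, edgeR). Ifng was at 126 and 277 CPM with PancVAX alone and 100.1 and 224 CPM with anti-PD-1, with a log2 fold change of -0.32 (adjusted P = 0.399). Percoll libraries held the higher values in both groups. Ccl5, another chemokine, was at 11313 and 13207 CPM with PancVAX alone and 14086 and 12534 CPM with anti-PD-1 (log2 fold change 0.13, adjusted P = 0.668).

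None of the 12 inhibitory receptors passed, with 9 values negative and 3 positive. The antibody's target Pdcd1 was at 285 and 322 CPM with PancVAX alone and 353 and 209 CPM with anti-PD-1, so it moved in opposite directions in the preparations (log2 fold change -0.11, adjusted P = 0.807, edgeR). Lag3 (-0.13, adjusted P = 0.690), Havcr2, which encodes TIM-3 (-0.36, adjusted P = 0.276), Tigit (0.36, adjusted P = 0.255) and Ctla4 (0.02, adjusted P = 0.957) did not pass either, nor did Cd160 (-0.66, adjusted P = 0.131), Entpd1 (-0.48, adjusted P = 0.142) and Klrc1 (-0.40, adjusted P = 0.228). Tox, the regulator tied to exhaustion, had 113 and 87.5 CPM with PancVAX alone and 79.6 and 75.1 CPM with anti-PD-1 (log2 fold change -0.37, adjusted P = 0.165). Of 10 costimulatory receptors none passed, with Icos at 0.53, Slamf7 at -0.68 and Cd226 at -0.63.

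Among 14 naive and memory genes Klf2, a regulator of T cell exit from tissue, fell from 881 and 773 CPM to 583 and 363 CPM (log2 fold change -0.82, SE 0.15, adjusted P = 0.0165, edgeR). Tcf7, the stem-like factor TCF-1, was at -0.18 and Il7r at 0.13 (adjusted P = 0.601 and 0.731). Of 14 fate factors only Hopx fell (-0.66, adjusted P = 0.0422), of 13 homing genes only the chemokine receptor Ccr2 (-0.64, adjusted P = 0.0356), and of 8 NK-type receptors Klrk1, which encodes NKG2D (-0.56, adjusted P = 0.0288), and Klre1 (-0.67, adjusted P = 0.0476). The homing receptors Cxcr3 and Cxcr6 did not pass (-0.17, adjusted P = 0.701 and -0.58, adjusted P = 0.0666). The phosphatase gene Ptpn6, which encodes SHP-1, fell from 140.1 and 154 CPM to 96.0 and 64.1 CPM (log2 fold change -0.90, SE 0.15, adjusted P = 0.0104). The linker and core histone genes Hist1h1c (-0.90, adjusted P = 0.00362) and Hist1h2ae (-0.91, adjusted P = 0.00840) fell, while none of the 25 cell cycle genes passed. Mki67, the proliferation marker, was at 128 and 77.9 CPM with PancVAX alone and 131 and 74.7 CPM with anti-PD-1 (log2 fold change -0.01, adjusted P = 0.991).

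Of 18 genes induced by the T cell receptor 3 rose and 1 fell, with a list median of 0.10. Nr4a3, an orphan nuclear receptor induced by antigen, went from 49.1 and 72.8 CPM to 101 and 166 CPM (log2 fold change 1.12, SE 0.13, adjusted P = 0.00139, edgeR). Crem, a modulator of cAMP-driven transcription, went from 73.0 and 112 CPM to 178 and 201 CPM (log2 fold change 1.07, SE 0.13, adjusted P = 0.00234), and Nr4a2 rose by 0.65 (adjusted P = 0.0311). Nr4a1, the best known gene of the family, was at 185 and 350.2 CPM with PancVAX alone and 237 and 607 CPM with anti-PD-1, and did not pass (log2 fold change 0.62, adjusted P = 0.187). Cd69, an early activation marker that also holds cells in tissue, fell from 262 and 572 CPM to 143 and 283 CPM (log2 fold change -0.94, SE 0.18, adjusted P = 0.0203). The list therefore did not move one way. All 3 members that rose, Nr4a3, Crem and Nr4a2, were also called higher in macrophages (1.45, 1.43 and 1.055), so their rise was not particular to T cells. The largest rise among abundant genes was Tob1, an antiproliferative factor of resting T cells, from 20.3 and 60.0 CPM to 59.6 and 141 CPM (log2 fold change 1.36, SE 0.13, adjusted P = 2.95e-04). Its level was higher in Percoll in both groups, and whole tumor with anti-PD-1 and Percoll without it lay side by side, so the groups overlapped. Tob1 passed without each of the 4 libraries in turn, but not without the block (adjusted P = 0.527, edgeR). Cebpb (1.02, adjusted P = 0.0104), Gch1, the first enzyme of tetrahydrobiopterin synthesis (0.86, adjusted P = 0.0157), the TGF-beta pathway inhibitor Pmepa1 (0.85, adjusted P = 0.0279), the ubiquitin ligase Rnf125 (0.85, adjusted P = 0.0113) and the elongation inhibitor Hexim1 (0.83, adjusted P = 0.0181) also rose. Of 18 AP-1 and dissociation stress genes the chaperone partner Dnaja1 rose (0.63, adjusted P = 0.00300).

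**Figure D2:**
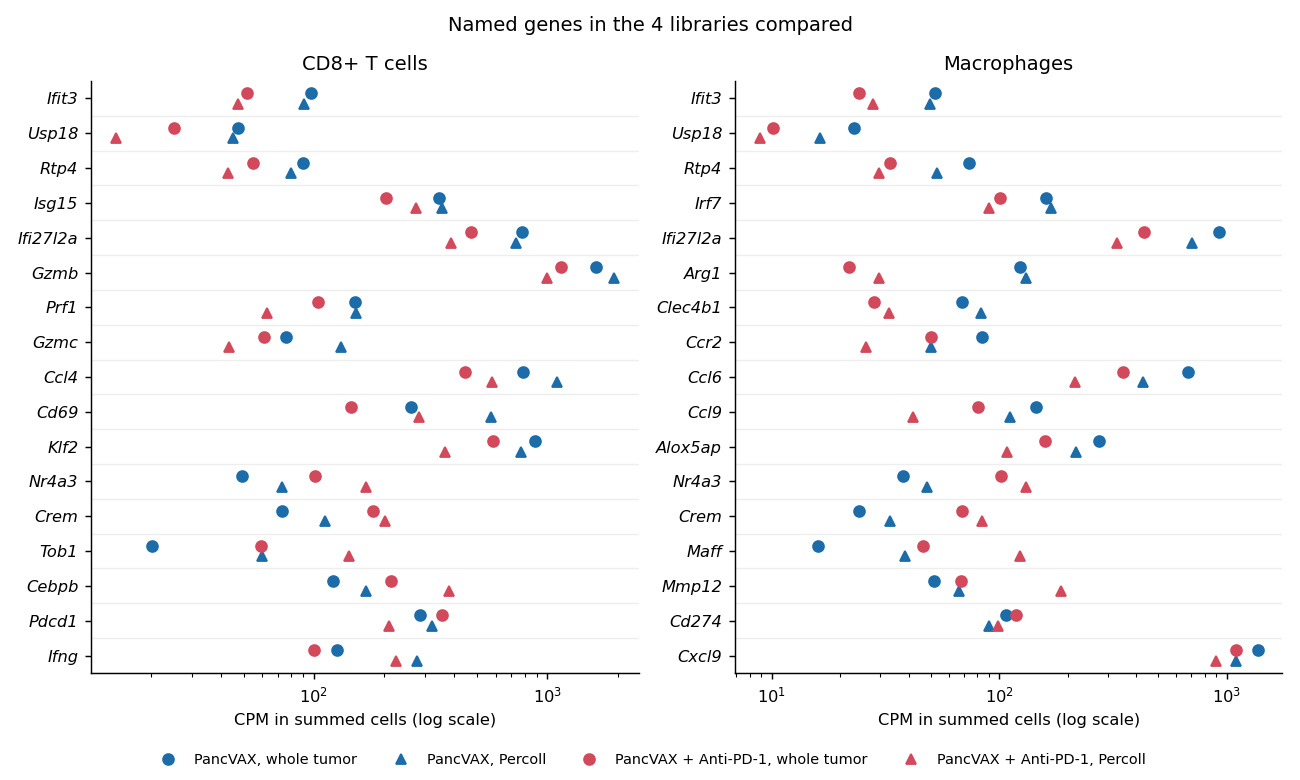
CPM (log scale) of named genes in CD8+ T cells (left) and macrophages (right), 1 point per library for PancVAX (blue) and PancVAX + Anti-PD-1 (red) in whole tumor (circles) and Percoll (triangles). Ifit3 in CD8+ T cells lies at 96.9 and 90.6 CPM without and 51.5 and 47.4 CPM with anti-PD-1, while Pdcd1, Ifng, Cd274 and Cxcl9 did not pass the test.

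Of 22 interferon-gamma response genes in CD8+ T cells 15 were negative and none passed both thresholds. Gbp8, Gbp4 and Psmb9 were at -0.52, -0.57 and -0.40. The receptor chain Ifngr1 was at 634 and 762 CPM with PancVAX alone and 808 and 703 CPM with anti-PD-1 (log2 fold change 0.13, adjusted P = 0.658). Of 15 MHC class I genes 14 were negative and none passed. MHC class II genes, which CD8+ T cells of mice do not normally express, had a median of 0.64 with none passing. The macrophage transcript C1qa in the gate stood beside it, its part not tested. C1qa was at 76.2 and 44.5 CPM with PancVAX alone and 67.6 and 100.4 with anti-PD-1 (not scaled by TMM). Of 20 glycolysis and hypoxia genes none passed (Hk2 at 1.10, adjusted P = 0.0818).

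In macrophages of the same libraries, arginase 1, 10 of 24 type I interferon-stimulated genes, and the chemokines Ccl6 and Ccl9 were lower with anti-PD-1 than with PancVAX alone, and Maff, Nr4a3 and Crem were higher. Of 11056 genes 190 passed (1.72%), 132 higher (1.19%) and 58 lower (0.525%). Both libraries with anti-PD-1 lay above both without for 17.1% of tested genes and below for 16.8%. The count was 2 (949 at an unadjusted P under 0.05) without preparation as a block, 6 in the fit of the 8 PancVAX libraries, 128 by DESeq2, and 182 without cells holding a skin or mast cell UMI. Leaving out a library gave 103 (PancVAX whole tumor), 12 (PancVAX Percoll), 702 (PancVAX + Anti-PD-1 whole tumor) and 197 (PancVAX + Anti-PD-1 Percoll), and a C1q limit of 10 gave 23.

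Arg1, which uses up the arginine that T cells need, had 124 and 132 CPM with PancVAX alone and 21.9 and 29.7 CPM with anti-PD-1, whole tumor first (log2 fold change -2.30, SE 0.39, adjusted P = 0.0117, edgeR). Over the other 12 libraries it ranged from 22.5 to 120.8 CPM with a median of 67.1, so that PancVAX alone held the highest and PancVAX + Anti-PD-1 whole tumor the lowest values of the 16. Arg1 did not pass without the Percoll library of PancVAX (adjusted P = 0.140, edgeR), without the block (adjusted P = 0.0898) or in the fit of the 8 PancVAX libraries (adjusted P = 0.0609). With PancVAX alone 6.18% (4.65–8.03%) of macrophages in whole tumor and 5.75% (4.16–7.72%) in Percoll had a UMI, against 2.84% (1.86–4.13%) and 3.96% (2.83–5.37%) with anti-PD-1 and 0.172–0.840% of CD8+ T cells. Thinned to 1000 UMIs the shares were 3.30% and 3.06% without and 1.54% and 1.90% with anti-PD-1. The unthinned intervals overlapped in Percoll, so the share of cells with an Arg1 UMI separated beyond counting error only in whole tumor. Of 19 M2-like genes Arg1 and F13a1, the A chain of coagulation factor XIII, fell (log2 fold change -1.98, SE 0.45, adjusted P = 0.0401), and 8 had positive values. The mannose receptor Mrc1 (-0.05, adjusted P = 0.940), Folr2 (-1.30, adjusted P = 0.163) and Il10 (0.05, adjusted P = 0.959) did not pass.

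Of 24 type I interferon-stimulated genes 10 fell and 0 rose, 22 had a negative value, and the median was -0.59 beside 0.01 over all genes. Ifi27l2a went from 923 and 703 CPM to 436 and 331 CPM (log2 fold change -1.08, SE 0.15, adjusted P = 0.00426, edgeR). Irf7, the factor that amplifies type I interferon, went from 162 and 169 CPM to 101 and 90.4 CPM (log2 fold change -0.78, SE 0.15, adjusted P = 0.0195), and Ifit3 from 52.1 and 49.8 CPM to 24.3 and 27.9 CPM (log2 fold change -0.97, SE 0.18, adjusted P = 0.0170). Rtp4 (-1.02), Usp18 (-1.05), Oas3 (-1.51), Oasl2 (-0.74), Ifit2 (-0.89), Ifit3b (-2.05) and Stat2 (-0.68) fell too, with adjusted P of 0.00671 to 0.0459. Isg15 did not pass (0.03, adjusted P = 0.965), and the difference from its value in CD8+ T cells was not tested. Ifit3 and Ifit3b are close paralogs that may share reads, so their separate values are uncertain. The summed level was 3138 and 2849 CPM with PancVAX alone and 2122 and 2215 CPM with anti-PD-1. The other 12 libraries spanned 2059.5 to 2932 CPM, and the isotype control Percoll library, at 2932 CPM, lay above PancVAX Percoll. With PancVAX + Anti-CTLA-4 the level was 2059.5 and 2156 CPM, in each preparation below that of PancVAX + Anti-PD-1. PancVAX and both antibodies stood at 2339 and 2797 CPM. Without vaccine, isotype control stood at 2651 and 2932 CPM and Anti-PD-1 at 2536 and 2704 CPM. A level as low was thus also found in a vaccinated pool without anti-PD-1. The count that fell was 4 and 2 without the whole-tumor or Percoll library of PancVAX, 12 and 7 without that of PancVAX + Anti-PD-1 (without the whole-tumor one 1 member was also called higher), 1 at a C1q limit of 10, 5 at a mitochondrial limit of 5%, 9 without cells holding a skin or mast cell UMI, 5 by DESeq2, 0 without the block, and 0 in the fit of the 8 PancVAX libraries, where 22 values stayed negative. The letters GAAANNGAA stood before 9 of 42 lower genes (21.4%), 9 of 105 higher genes (8.57%) and 701 of 8746 tested genes (8.02%), and the stricter form before 8 (19.0%), 6 (5.71%) and 321 (3.67%). Oas3 and Ifit3, whose promoters are printed above, fell in both classes.

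Of 23 interferon-gamma-induced and M1-like genes Gbp2, a guanylate-binding protein, fell from 219 and 252 CPM to 153 and 171 CPM (log2 fold change -0.54, SE 0.12, adjusted P = 0.0427, edgeR), and none rose. The CXCR3 ligand Cxcl9 was at 1369 and 1099 CPM with PancVAX alone and 1097 and 898 CPM with anti-PD-1 (log2 fold change -0.31, adjusted P = 0.442) and Cxcl10 at -0.28, adjusted P = 0.397. Cd80 and Cd86, the ligands of CD28, were both higher in each preparation, at 0.73, adjusted P = 0.110 and 0.42, adjusted P = 0.181, and did not pass. Nos2 was at most 3.13 CPM in the 4 libraries. Cd274, the ligand of the blocked receptor, was at 108 and 90.4 CPM with PancVAX alone and 118 and 99.0 CPM with anti-PD-1 (log2 fold change 0.13, adjusted P = 0.831). None of 12 checkpoint and costimulatory ligands, 10 MHC class II genes, 15 MHC class I genes, 16 lipid-handling genes, 14 resident-type genes and 10 complement genes passed. Among them H2-Aa was at 0.22, Cd74 at 0.19, Apoe at 0.03, Trem2 at -0.47, Havcr2 at 0.50 and Cbr2 at -0.91. Spp1, the osteopontin gene, was higher in Percoll in both groups, at 98.2 and 389 CPM with PancVAX alone and 68.6 and 319 CPM with anti-PD-1 (log2 fold change -0.34, adjusted P = 0.866).

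Of 15 chemokines Ccl9 and Ccl6, relatives that bind CCR1, fell. Ccl6 went from 679 and 430.2 CPM to 352 and 216 CPM (log2 fold change -0.97, SE 0.22, adjusted P = 0.0391, edgeR) and Ccl9 from 146 and 112 CPM to 80.6 and 42.0 CPM (log2 fold change -1.08, SE 0.23, adjusted P = 0.0320). Of 13 monocyte genes Ccr2, the receptor that brings monocytes from blood, fell from 84.2 and 50.4 CPM to 50.1 and 26.1 CPM (log2 fold change -0.83, SE 0.20, adjusted P = 0.0495). Ly6c2 did not pass (-0.26, adjusted P = 0.896). Other large falls were Clec4b1, a C-type lectin receptor (-1.32, adjusted P = 6.18e-04), Ms4a4c (-1.05, adjusted P = 0.00692), Themis2 (-0.88, adjusted P = 0.0256) and Alox5ap, which hands arachidonate to 5-lipoxygenase (-0.88, adjusted P = 0.0214). Clec4b1 went from 68.7 and 83.5 CPM to 28.2 and 32.8 CPM. Of 25 cell cycle genes 24 were negative with a median of -0.34, and none passed (Tyms at -0.53, adjusted P = 0.269, Mki67 at -0.08, adjusted P = 0.948).

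Among the genes that were higher, Krt10, a keratin of skin, was at 1.13 and 2.83 CPM with PancVAX alone and 7.56 and 281 CPM with anti-PD-1. It reached a mean of 50 CPM, the level above which genes were named for their size of change, only through the Percoll library of PancVAX + Anti-PD-1, where 17 macrophages held 1066 of its 1079 UMIs. Maff, a small Maf factor, went from 16.0 and 38.7 CPM to 46.4 and 124 CPM (log2 fold change 1.61, SE 0.17, adjusted P = 6.18e-04, edgeR), Nr4a3 from 37.7 and 48.2 CPM to 102 and 132 CPM (log2 fold change 1.45, SE 0.18, adjusted P = 0.00191), and Crem from 24.2 and 33.1 CPM to 68.9 and 84.4 CPM (log2 fold change 1.43, SE 0.16, adjusted P = 7.19e-04). The triglyceride synthase Dgat1 (1.18, adjusted P = 0.00206), the elongation factor Ell2 (1.15, adjusted P = 0.00535), Phlda1 (1.21, adjusted P = 0.0463) and Cytip (1.08, adjusted P = 0.00999) rose as well. Of 18 AP-1 and dissociation stress genes 1 rose, Fosb, from 296 and 392 CPM to 517 and 723 CPM (log2 fold change 0.85, SE 0.15, adjusted P = 0.0153), while Fos was at -0.26 and Jun at -0.20. Of 17 cathepsins and proteases the matrix enzymes Mmp13 (0.75, adjusted P = 0.0112) and Mmp12 (1.00, adjusted P = 0.0403) rose. Il1b was at 0.36, adjusted P = 0.461.

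Crem and Nr4a3 rose, and Ifit3, Usp18, Rtp4 and Ifi27l2a fell, in both classes. The keratins Krt5, Krt14 and Krt10, transcripts of skin, were called higher in both classes too. In CD8+ T cells Krt5 had 19 and 159 UMIs with anti-PD-1 and 0 and 0 with PancVAX alone, whole tumor first, Krt14 had 18 and 221 against 1 and 1, and Krt10 had 15 and 245 against 0 and 8. Without the cells that held a skin or mast cell UMI, Crem and Nr4a3 stayed higher and Ifit3, Usp18, Rtp4 and Ifi27l2a lower in both classes, each past the same thresholds (edgeR). The classes come from the same 4 libraries, so this is not a second observation of the treatment. The full cAMP response element TGACGTCA, a palindrome that CREM binds, was searched in the same windows. It stood before 11 of 105 genes higher in macrophages (10.5%), 4 of 46 higher in CD8+ T cells (8.70%), 0 of 42 and 1 of 52 of the lower genes, and 277 of 8746 genes tested in macrophages (3.17%) and 270 of 8250 in CD8+ T cells (3.27%). Maff and Ell2, higher in both classes (in CD8+ T cells at 1.17 and 1.19), hold it in capitals at chr15:79347420-79347519 on the plus strand and chr13:75707266-75707365 on the plus strand.
Maff: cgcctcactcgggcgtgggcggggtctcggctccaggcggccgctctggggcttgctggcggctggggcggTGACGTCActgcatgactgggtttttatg
Ell2: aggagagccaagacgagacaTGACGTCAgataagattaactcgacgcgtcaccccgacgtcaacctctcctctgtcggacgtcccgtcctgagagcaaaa
These letters were not found in the window of Nr4a3, and the table holds no promoter of Crem. The motif was chosen with earlier results of these data known, and binding of CREM or of other factors was not measured.

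**Figure D3:**
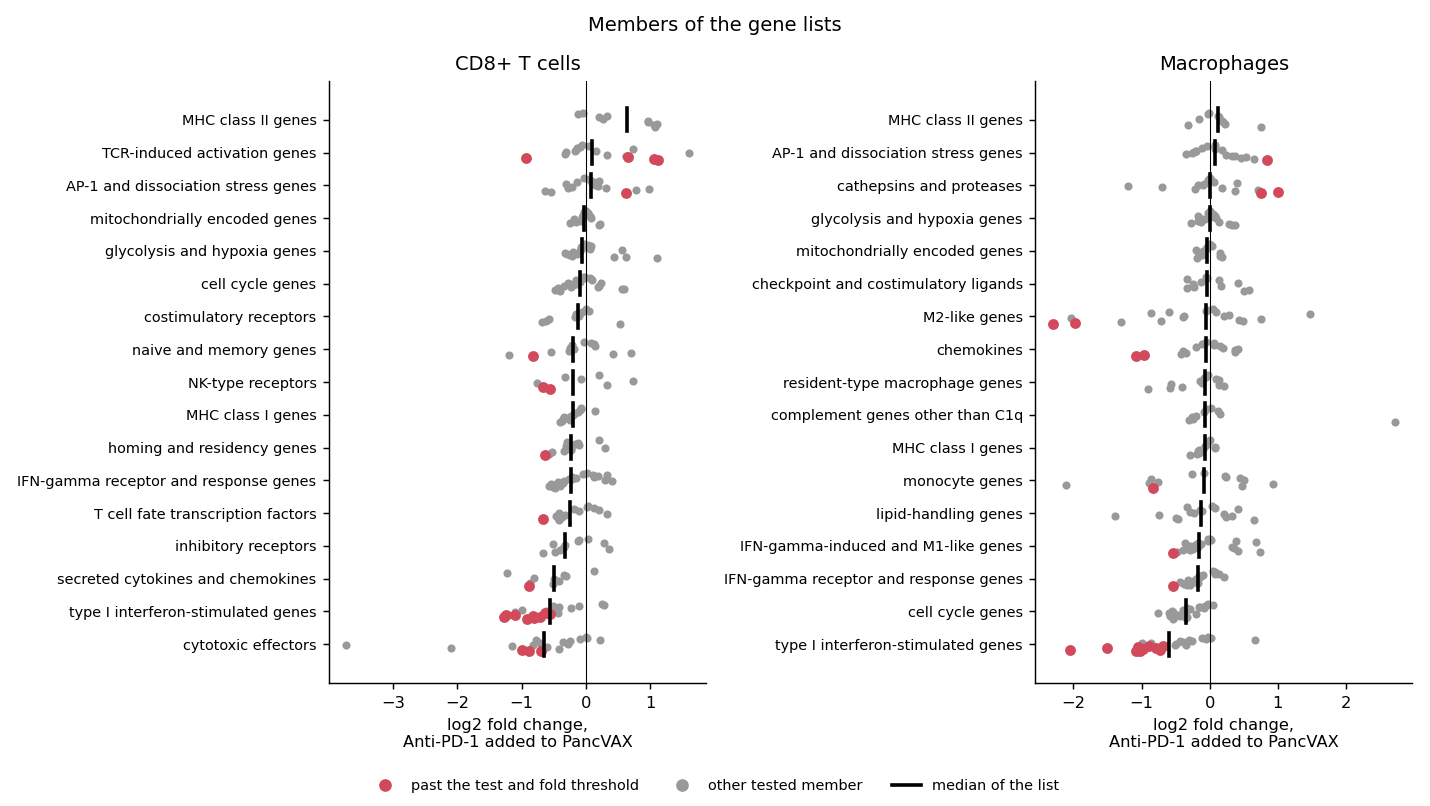
log2 fold change of each tested member of the gene lists in CD8+ T cells (left) and macrophages (right), with the list median as a black bar. Red points passed an adjusted P of 0.05 and a log2 fold change of 0.5. The type I interferon-stimulated list has 9 red points in CD8+ T cells and 10 in macrophages, all below 0.

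The same antibody was also added in settings that share no library with this comparison. On top of PancVAX + Anti-CTLA-4, 6 genes were called in CD8+ T cells (0.0574% of those tested, 0.0191% higher and 0.0383% lower) and 11 in macrophages (0.0995%, 0.0543% higher and 0.0452% lower). Without vaccine, against isotype control, 9 were called in CD8+ T cells (0.0861%, 0.0191% higher and 0.067% lower) and 0 in macrophages (0%). At an unadjusted P under 0.05 these were 507, 760, 611 and 403 genes by edgeR, and DESeq2 was not run on these settings. Of the 70 genes lower in CD8+ T cells with PancVAX, 33 (47.1%) were also lower beside anti-CTLA-4 and 34 (48.6%) without vaccine, against 49.2% and 49.6% of all tested genes. Of the 61 higher genes 24 (39.3%) and 27 (44.3%) were higher, against 50.8% and 50.4%. Of the 132 genes higher in macrophages 82 (62.1%) were also higher beside anti-CTLA-4, against 51.4% of all tested genes, and 31 (23.5%) without vaccine, against 50.7%. Of the 58 lower genes 27 (46.6%) were also lower in each setting, against 48.6% and 49.3% of all tested genes. Of the genes called with PancVAX in CD8+ T cells, Gzmc was also called in the same direction beside anti-CTLA-4 (-1.88, adjusted P = 0.00779, edgeR), and Car2 and Trav9-2 without vaccine. In macrophages Cox4i2, H2-M2 and St7 were called higher both with PancVAX and beside anti-CTLA-4 (1.53, 1.21 and 0.74 beside anti-CTLA-4), and none were without vaccine. These genes were named after their values were seen.

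The interferon-stimulated list had a median of -0.56 in CD8+ T cells with PancVAX, 0.10 beside anti-CTLA-4 and -0.08 without vaccine. In macrophages the medians were -0.59, 0.25 and -0.02. A test of the difference between the effect with PancVAX and that beside anti-CTLA-4 passed for 23 genes in CD8+ T cells and 15 in macrophages. Against the effect without vaccine it passed for 9 and 45. In CD8+ T cells Ifit3 differed from the effect beside anti-CTLA-4, which was 0.21 (difference -1.14, adjusted P = 0.0227, edgeR), and so did Ifi27l2a (difference -1.26, adjusted P = 0.0303). In macrophages Irf7 (difference -1.56, adjusted P = 0.0123), Usp18 (-1.81, 0.0496) and Rtp4 (-1.34, 0.0467) did. Arg1 was at 0.65 without vaccine and differed from the effect with PancVAX by -2.95 (adjusted P = 0.0366), while beside anti-CTLA-4 it was at -1.08 and the difference did not pass (adjusted P = 0.515). Among the named genes, Tob1 in CD8+ T cells and Maff, Rtp4 and Clec4b1 in macrophages differed from both other settings.

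**Figure D4:**
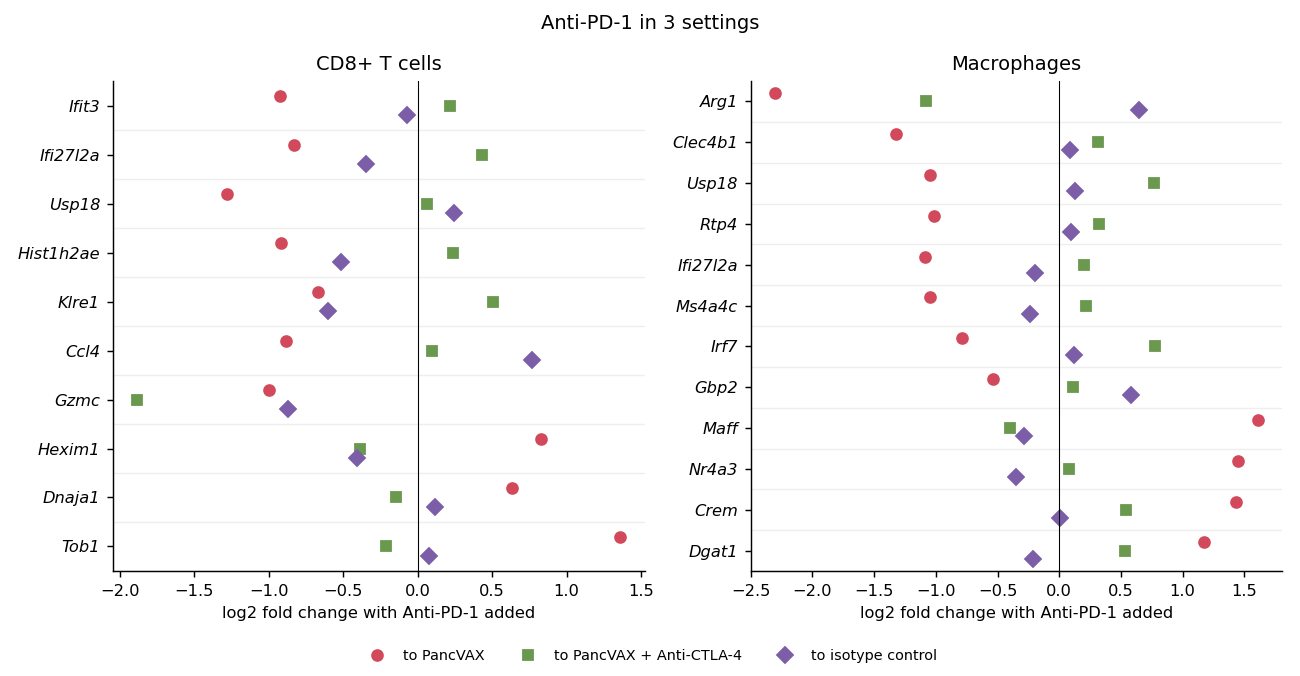
log2 fold change with anti-PD-1 added to PancVAX (circles), to PancVAX + Anti-CTLA-4 (squares) and to isotype control (diamonds) in CD8+ T cells (left) and macrophages (right). Ifit3 in CD8+ T cells is at -0.92 with PancVAX and 0.21 beside anti-CTLA-4, and Arg1 in macrophages is at -2.30 with PancVAX and 0.65 without vaccine.

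T cell receptors were read in the Percoll libraries only, so that each treatment had 1 library and clones were not tested. A clone was defined by the V gene and CDR3 bases of its beta chain. With PancVAX alone 500 gated CD8+ T cells with a beta chain formed 309 clones, and 55.0% of cells (50.5–59.4%) sat in clones of 2 or more. With anti-PD-1 791 cells formed 396 clones, and 65.9% (62.4–69.2%) sat in such clones. Drawn down to 500 cells, the pool with anti-PD-1 held 288 clones. Clones of 10 or more cells were 2 with PancVAX alone, with 4.40% of cells, and 8 with anti-PD-1, with 18.2% of cells. Limits of 2 and of 10 cells are passed more easily among 791 cells than among 500. The 10 largest clones, which need no such limit, held 15.8% of cells (12.7–19.3%) with PancVAX alone and 20.4% (17.6–23.3%) with anti-PD-1, and these intervals overlap. The largest clone had 12 cells (2.40%) and 29 cells (3.67%). The pools shared 3 clones, 0.971% of those with PancVAX alone and 0.758% of those with anti-PD-1.

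**Figure D5:**
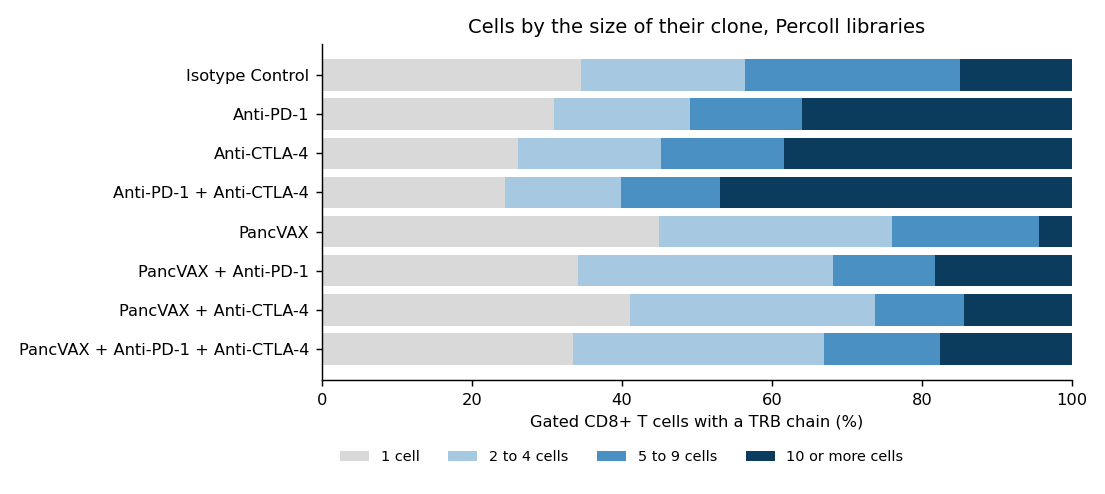
Share of gated CD8+ T cells with a beta chain (%) by the size of their clone, 1 Percoll library for each of 8 treatments. Clones of 10 or more cells (darkest) hold 4.40% of cells with PancVAX and 18.2% with PancVAX + Anti-PD-1.

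TRBV26 was used by 16 of 500 cells (3.20%) with PancVAX alone and 85 of 791 (10.7%) with anti-PD-1, in 7 and 18 clones. Its share was 2.92% with PancVAX + Anti-CTLA-4 and 8.13% with PancVAX and both antibodies. Without vaccine it was 8.55% with isotype control, 8.28% with Anti-PD-1, 3.63% with Anti-CTLA-4 and 7.59% with both antibodies. A share near that with anti-PD-1 thus also stood in pools without vaccine. The Trbv26 transcript went from 28.8 and 41.1 CPM to 79.8 and 85.5 CPM (log2 fold change 1.25, SE 0.29, adjusted P = 0.0476, edgeR), and was higher in whole tumor as well, where receptors were not read. Trav12-2 rose by 1.93 (adjusted P = 0.0254), and Trav1, Trav9-2, Trbv1 and Trbv2 fell. The largest clone with anti-PD-1 joined the pair that rose, TRBV26 with TRAV12-2, in 23 of 23 cells with an alpha chain. It held 29 of the 85 cells. A further TRBV26 clone, paired with TRAV13-1 in 13 of 13 cells, held 18. Their beta CDR3s are shown because they are the largest with TRBV26.
TRBV26 clone of 29 cells: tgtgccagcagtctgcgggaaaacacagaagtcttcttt
TRBV26 clone of 18 cells: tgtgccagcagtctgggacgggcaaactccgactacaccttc

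The largest clone with PancVAX alone (12 cells) and the third largest with anti-PD-1 (20 cells) differed in J gene. Both used TRBV5 and paired with TRAV7D-2, in 11 of 11 and 17 of 17 cells with an alpha chain, and the alpha CDR3 was the same base for base. Their beta CDR3s have 39 bases each and share the first 20, in capitals. They used TRBJ2-2 and TRBJ1-4. The first 13 of these stood in every clone with TRBV5 and this alpha CDR3 in the 8 treatments, and a clone of 1 cell with Anti-CTLA-4 shared the first 17.
PancVAX, beta: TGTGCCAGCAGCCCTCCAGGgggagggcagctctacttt
PancVAX + Anti-PD-1, beta: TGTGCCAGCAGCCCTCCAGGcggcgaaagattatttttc
Both, alpha: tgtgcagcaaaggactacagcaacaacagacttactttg
This pair of clones was picked after the leading clones were seen. Cells with TRBV5 and this alpha CDR3 were found in all 8 treatments, from 1 to 43 cells of 201 to 739 with both chains, and numbered 27 of 429 with PancVAX alone and 21 of 589 with anti-PD-1, in 6 and 2 clones. The shared 20 bases were found with them only in these 2 clones, at 2.56% (1.29–4.54%) and 2.89% (1.69–4.58%) of cells with both chains, a difference within counting error.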

How the data were processed

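Single-cell RNA libraries of whole and Percoll-enriched tumors and T cell receptor libraries of the latter were used. The deposited values are UMI counts per gene and barcode, which the authors made with Cell Ranger 4.0.0 (build mm10 in the submitters' processing notes), and receptor contigs with a UMI count each. Barcodes with 1000–10000 UMIs, 200–3000 genes, a mitochondrial share below 10%, and no hemoglobin UMI were retained, 57360 of 144994 barcodes. Genes seen in fewer than 3 barcodes were left out, and no doublet caller was run. Counts were summed by library and class and fitted over the 16 libraries together in edgeR 4.0.16 (quasi-likelihood) with TMM, filterByExpr, preparation as block, and Benjamini-Hochberg adjustment. CPM are scaled by TMM unless stated otherwise. A call needed an adjusted P below 0.05 and an absolute log2 fold change above 0.5. Genes of the gates were not tested, and some genes are not reported here. In simulations edgeR recovered 55.5% of 200 genes changed 2-fold and 17% of those changed 1.5-fold in CD8+ T cells, and 60% and 14% in macrophages.

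Named genes were a core set per class, the largest rises and falls (8 each at most, T cell receptor segments apart) with at least 50 CPM, called members of the lists, and up to 4 examples of other lists. The members, lists and promoter motifs were chosen with earlier results of these data known. Preparations were blocked because the study's methods describe them as the 2 sequencing batches, while the labels give the preparation alone. Differences between preparations correlated between the compared treatments with r = 0.33 in CD8+ T cells and 0.56 in macrophages, across genes, which are not independent. Over all 28 pairs of treatments r ran from -0.12 to 0.47 and from -0.17 to 0.56, so some pairs were negative. Intervals are exact binomial at 95% and, like all counting errors here, cover counting only. Promoters are from RefSeq (GRCm38.p6), matched by symbol for 8250 of 10454 and 8746 of 11055 symbols. Gene models and reads by strand were not examined. Alternatives were DESeq2 1.42.0, RLE scaling, other sets of libraries, other limits on cells, and other gates. R 4.3.3, Python 3.11.15 and scipy 1.17.1 were used.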

Additional observations from a re-analysis of the deposited data

Results flagged for a closer look

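The log2 fold change with anti-PD-1 differed between settings, by a test of the difference itself (edgeR, adjusted P below 0.05), for the following named genes. Values are differences of log2 fold changes, the effect with PancVAX minus that in the other setting. Against the effect beside anti-CTLA-4 in CD8+ T cells these were Ifi27l2a (-1.26), Ifit3 (-1.14), Hist1h2ae (-1.15), Klre1 (-1.18), Dnaja1 (0.77), Hexim1 (1.22) and Tob1 (1.57). In macrophages they were Clec4b1 (-1.64), Ifi27l2a (-1.29), Irf7 (-1.56), Ms4a4c (-1.26), Rtp4 (-1.34), Usp18 (-1.81) and Maff (2.01).

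Against the effect without vaccine they were Ccl4 (-1.65) and Tob1 (1.28) in CD8+ T cells. In macrophages Arg1 (-2.95), Clec4b1 (-1.41), Gbp2 (-1.12) and Rtp4 (-1.12) were lower by comparison, and Crem (1.43), Cytip (1.26), Dgat1 (1.39), Ell2 (1.48), Fosb (1.10), Maff (1.89), Mmp13 (1.16) and Nr4a3 (1.80) were higher. Each setting is 1 pool a side, so the pool and the setting cannot be told apart.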

How the results depend on the processing

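Preparation numbers the replicates. Without the replicate block 1 gene was called in CD8+ T cells and 2 in macrophages, against 131 and 190 with it. With DESeq2 the counts were 75 and 128, without a filter on low counts 706 and 381, with only the 4 libraries compared 218 and 364, with only the 8 PancVAX libraries 0 and 6, and without the upper limits on UMIs and on genes, lifted together, 655 and 673. Leaving out 1 of the 4 libraries gave 5 to 1261 calls in CD8+ T cells and 12 to 702 in macrophages, the low ends without PancVAX Percoll and the high ends without PancVAX + Anti-PD-1 whole tumor. A C1q limit of 10 gave 23 calls in macrophages and of 40 gave 316. RLE scaling, a mitochondrial limit of 5%, no hemoglobin filter and gates without UMIs of other cell types stayed within 1.5 times in both classes. Of the named genes' values, 1233 kept their direction and side of the threshold, including genes not called in the main fit that stayed so. A further 328 fell short of it, 26 came past it, 56 changed sign without a call, and none reversed with a call. The cause was not tested.

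Without the upper limits on UMIs and on genes, CD8+ T cells were 11.6% and 11.2% of passing cells with PancVAX alone (whole tumor and Percoll) and 16.1% and 13.3% with anti-PD-1, and macrophages were 20.9% and 16.6% against 15.8% and 12.0%. Clones of 2 or more cells held 50.8% with PancVAX alone and 61.6% with anti-PD-1 when clones were defined by both chains (429 and 589 cells), and 49.4% with PancVAX alone and 61.3% with anti-PD-1 over all cells with a beta chain (660 and 1202 cells). These shares rise with the number of cells. At equal numbers there were 284 and 258 clones among 429 cells, and 435 and 417 among 660. The gate without skin or mast cell transcripts was chosen after seeing the data. With 2 libraries a side, 2-fold changes were recovered in simulation for only 55.5% of changed genes in CD8+ T cells and 60% in macrophages. The 1.5-fold changes were recovered for 17% and 14%, and the simulations held no difference between preparations. With 1 pool a treatment the spread between mice is unknown.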
